A study of Homo sapiens with 1 sample.

Results

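The 200 progenitors with the highest RNA of p53 target genes were singled out among 12239 cells of a single library of human neural progenitor cells (NPCs). They were chosen by their own readout: cells were ranked by the summed RNA of CDKN1A, MDM2, PHLDA3, FAS, BBC3, PTCHD4 and PINCR per 10000 unique molecular identifiers (UMIs, each marking 1 captured RNA molecule), and the 200 highest were taken as members. They made up 1.63% of the 12239 kept cells, and the library held 14726 barcodes in all. The library, labelled hHAR123 and of genotype WT, was made from the human embryonic stem cell line H9, which carries the human sequence of the enhancer HAR123. The cells had been grown with the SMAD pathway inhibitors dorsomorphin and SB431542 and with a Rock inhibitor, replated on Matrigel, and taken ahead of rosette selection. All members and all cells they were compared with shared this genotype, these agents and this culture. The methods describe pooling of independent clones of a genotype, and clones cannot be told apart in the counts. Cells of other genotypes are not analysed here. No replicate of this 1 library was at hand, so no test was run. Levels were pooled as UMIs per 1000000 UMIs of a group of cells (CPM), and all intervals are 95% intervals. Those of levels and ratios cover error in counting UMIs only and leave out the spread between cells. Those of shares treat the cells as independent draws, and none covers the spread between libraries.

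The transcription factor p53 is kept low in unstressed cells because its target MDM2 tags it for degradation. Damage to DNA, replication stress or a disturbed mitosis stabilizes p53, which then raises RNA of genes that stop the cell cycle (CDKN1A, an inhibitor of cyclin-dependent kinases), favour cell death (BBC3, FAS, BAX), repair DNA, or switch p53 off again (MDM2, PPM1D). Cultured pluripotent cells and neural progenitors are known for a responsive p53 pathway, and p53 restrains the self-renewal of neural progenitors in the developing brain.

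Members were deeper than the other cells. They had a median of 21011 UMIs (lowest 3872, highest 82828) and 5968 detected genes, against 16924 UMIs and 5420 genes in the other 12039 kept cells, and their median mitochondrial share was 5.48% against 5.17%. The sum used for ranking ran without a gap through the limit. It was 40.3 UMIs per 10000 in the first cell, 9.67 in the median member, 7.09 and 7.08 in the last 2 members, and 7.08 and 7.07 in the next 2 cells, and the median of the other kept cells was 0.774. The median member held 21 UMIs of the 7 genes (lowest 4, highest 334), whereas 3134 kept cells (25.6%) held none. No step separated members from the next cells, and the limit of 200 lies on a gradient.

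**Figure D1:**
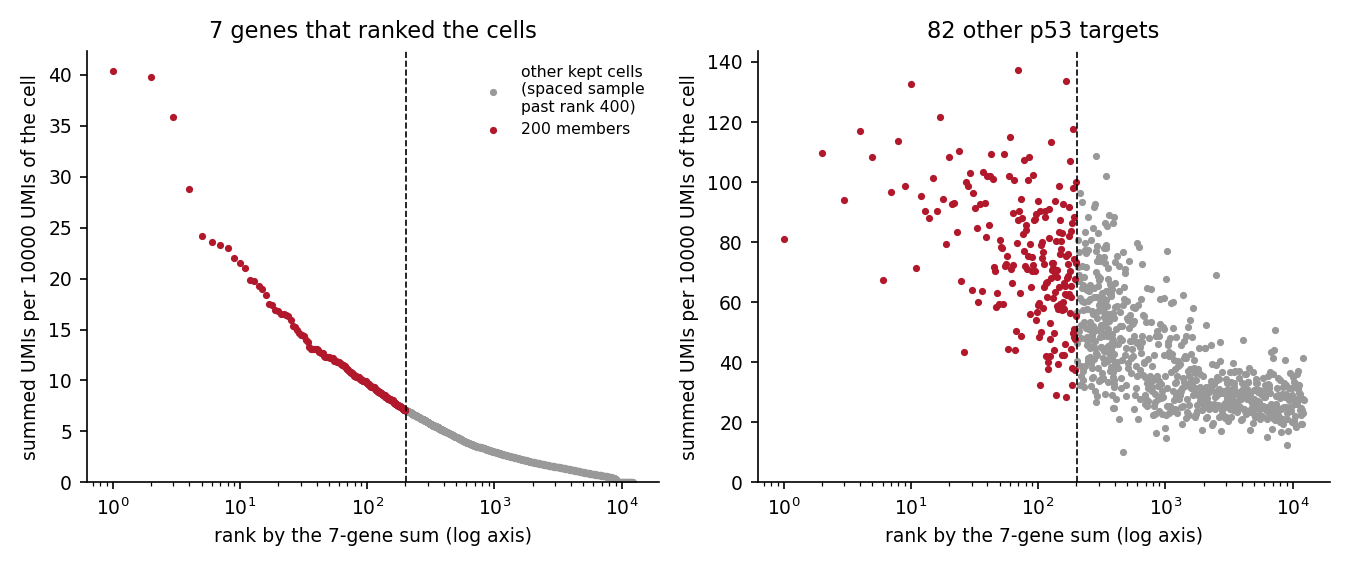
Each point is a cell, placed by its rank on the 7-gene sum (log axis) and by its summed UMIs per 10000 of the 7 ranking genes (left) or of 82 other p53 targets (right); the dashed line is the limit of 200 cells. The 7-gene sum passes the limit without a step, and the other targets fall from 8982 CPM in the first 50 cells to 2849 CPM in the last 9239.

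Promoter sequence is shown first for genes whose start site carries the binding motif of p53 itself. The 10-base p53 motif and its pair (2 motifs with at most 13 bases between them, the full binding site) were searched in RefSeq windows of 300 bases (250 before and 50 after each start site, GRCh38.p14), with all start sites of a gene read together. A full site was found for 10 of 27305 genes (0.0366%), among them PTCHD4, PURPL, DDB2 and LNCTAM34A, a noncoding gene that lies within MIR34AHG on the opposite strand. The 150 bases before 3 of these starts are printed with the full site in capitals, 5′ to 3′ on the strand of the gene. They are PTCHD4 (chr6:48111198-48111347, minus strand), PURPL (chr5:27472142-27472291, plus strand) and LNCTAM34A (chr1:9182054-9182203, plus strand).
PTCHD4: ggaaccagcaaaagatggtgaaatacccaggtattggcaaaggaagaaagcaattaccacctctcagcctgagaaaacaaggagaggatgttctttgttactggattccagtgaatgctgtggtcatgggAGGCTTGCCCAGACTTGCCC
PURPL: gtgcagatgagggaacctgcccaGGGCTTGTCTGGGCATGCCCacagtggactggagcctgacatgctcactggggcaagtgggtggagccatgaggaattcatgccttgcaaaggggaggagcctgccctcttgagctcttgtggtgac
LNCTAM34A: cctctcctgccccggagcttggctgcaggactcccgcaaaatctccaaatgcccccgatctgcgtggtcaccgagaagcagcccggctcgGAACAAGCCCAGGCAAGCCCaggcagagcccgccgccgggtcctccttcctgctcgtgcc
The site of DDB2, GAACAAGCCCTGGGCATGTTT, began 6 bases after its start. The pooled levels of all 4 genes were higher in members, which is a description. PTCHD4 had helped to choose the members. LNCTAM34A is not a listed target and passed the filter on low levels only through members. Like DYNC2H1 and MCC below, it was named after its value was seen. PTCHD4, which the rule used, stood at 533 against 32.6 CPM, PURPL at 343 against 64.6, DDB2 at 140 against 31.7, and LNCTAM34A, listed under its older symbol LINC01759, at 35.7 against 3.48, a 10.2-fold ratio (8.63 to 12.1). MIR34AHG had a ratio of 10.8, and where the counting ignored strand the reads of the pair cannot be told apart, so the level of LNCTAM34A is uncertain. Of the other 6 genes with a site, 2 passed the filter on low levels, and neither was 1.5-fold higher: DYNC2H1 was at 141 against 145 CPM and MCC at 63.0 against 45.7 CPM. Among 69 matched targets outside the 7, 2 (2.90%) had a full site and 9 (13%) had at least 1 single motif, which 8.06% of all genes, 11.1% of the matched G2/M list and 18.8% of the matched S list had. No match says only that these letters were not in these windows, and the site by which p53 is known to act on CDKN1A lies farther upstream.

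The 7 genes of the rule are given as a description of what was chosen. PTCHD4, a membrane protein related to the Hedgehog receptor PTCH1, supplied 45.3% of the 7-gene UMIs and was the highest of the 7 in 154 members. It ranged from 0 to 18.5 UMIs per 10000 over the members, with a median of 5.23, and 196 members held at least 1 UMI. MDM2 supplied 25.9% and stood at 305 CPM in members against 57.8 in the other cells, with a median of 1.87 and a highest value of 22.1 UMIs per 10000. CDKN1A stood at 128 against 3.72 CPM, and 152 members had a UMI of it. The other genes were lower: BBC3, which encodes the death factor PUMA, was at 60.2 against 11 CPM, PHLDA3, an inhibitor of AKT signalling, at 48.5 against 3.65, and the death receptor gene FAS at 22.7 against 2.39. PINCR, a noncoding RNA on the X chromosome (X:43176994-43226598, GENCODE 44), was at 77.9 against 1.12 CPM but was detected in only 69 members, and 1 member alone held 135 of its 371 UMIs. MDM2 was detected in 180 members and also in 59.5% of the other cells. At least 4 of the 7 genes were detected in 156 members (78.0%), and 13 members (6.5%) rested on 1 or 2 genes.

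Each of the 7 genes was also read in cells it had not helped to choose, by ranking on the other 6 and taking the 200 highest again. CDKN1A then stood at 117 CPM in the chosen cells against 3.97 in the rest, a 29.6-fold ratio (26.6 to 32.9). The ratio was 50.7 (43.2 to 59.4) for PINCR, 11.5 (9.81 to 13.4) for PHLDA3, 9.91 (9.40 to 10.4) for PTCHD4, 8.84 (7.09 to 10.9) for FAS, 4.58 (4.0 to 5.21) for BBC3 and 4.53 (4.27 to 4.81) for MDM2. Without the first-ranked member the PINCR ratio was 30 (24.9 to 36.1). These ratios are of pooled levels, and the share of the chosen cells with a UMI ranged from 28.0% for PINCR to 83.5% for MDM2. The cells chosen without PTCHD4 shared 126 of the 200 members, and those chosen without any 1 of the other genes shared 174 to 195.

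Targets of p53 outside the 7 were higher in members, and 61 of the 63 measured had a ratio above 1. Of 82 listed targets, 63 were measured (a mean of the 2 group levels of at least 10 CPM), 50 of these 63 were at least 1.5-fold higher and 0 were 1.5-fold lower, with a median ratio of 2.32. Over all 10046 genes measured outside the 7, 4.82% (484 genes) were at least 1.5-fold higher, 2.91% (292 genes) were at least 1.5-fold lower, and the median ratio was 0.963. Of the 63 targets, 11 passed the filter only through their level in members, GDF15 among them. With the filter set on the other cells alone, a reading added after the data were seen, 39 of 52 targets were at least 1.5-fold higher and 0 lower, where 3.66% of 10019 genes were higher. The summed level of the 82 targets was 7589.6 CPM (7512 to 7668) in members and 3057 CPM (3050 to 3064) in the other cells, a 2.48-fold ratio (2.46 to 2.51). Per cell, the median member held 74.0 UMIs of these targets per 10000 (lowest 28.5, highest 137) and the median other cell 28.5. The groups overlapped: 199 members lay at or above the median of the other cells and 181 at or above their 95th percentile. Of the 12039 other cells, 57 (0.473%) reached the median member and 6060 (50.3%) the lowest member. The targets were chosen as targets of the same factor as the 7 genes and with earlier results of these data known, so that their agreement in direction is a description.

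Among the 19 targets that slow the cycle or feed back on p53, 15 were measured. Of these, 13 were at least 1.5-fold higher, where 4.82% of all genes were. Some, GDF15 and SESN2 among them, were under 10 CPM in the other cells and passed the filter only through members. A count for this list with the filter set on the other cells alone was not made. GDF15, a secreted stress factor that is raised by p53, was detected in 85 members, ranged from 0 to 4.71 UMIs per 10000 in members, and stood at 49.7 against 1.10 CPM, a 45.3-fold ratio (37.8 to 54.3). PLK2, a kinase of the centrosome cycle, was at 96.3 against 11.1 CPM (8.69-fold, 7.85 to 9.60). ZMAT3, an RNA-binding protein that acts downstream of p53, was detected in 173 members, with a median of 1.36 and a highest value of 5.47 UMIs per 10000 against a median of 0 in the other cells, and stood at 146 against 17.9 CPM (8.21-fold, 7.56 to 8.89). BTG2, an antiproliferative factor, was at 86.7 against 17.1 CPM, SESN2 and SESN1, which damp mTOR signalling, at 39.2 against 8.07 and 116 against 41.5 CPM, and GADD45A, a growth arrest factor, at 126 against 32.3 CPM. The phosphatase gene PPM1D, which shuts p53 signalling down, was at 117 against 46.5 CPM and CCNG1, another negative regulator, at 421 against 204 CPM. The 15 measured genes of this list had a median ratio of 2.80. BTG1 was at 130 against 116 CPM and E2F7, a repressor of E2F genes, at 78.5 against 52.9 CPM, both under 1.5-fold.

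Among the 19 targets tied to cell death, 14 were measured and 9 were at least 1.5-fold higher, where 4.82% of all genes were. Some, among them EDA2R, TNFRSF10D and PMAIP1, were under 10 CPM in the other cells and passed the filter only through members. This list was not counted with the filter set on the other cells alone. BAX, which opens the outer mitochondrial membrane, had a median of 3.03 UMIs per 10000 in members (highest 11.6) against 0.816 in the other cells and stood at 327 against 110 CPM (2.97-fold, 2.82 to 3.13). EDA2R, a receptor of the tumour necrosis factor family, was at 51.2 against 6.70 CPM. The TRAIL receptor genes TNFRSF10D and TNFRSF10B were at 57.3 against 9.51 and 213 against 56.7 CPM, and PMAIP1, which encodes NOXA, at 30.2 against 8.46 CPM. APAF1, the core of the apoptosome, was at 40.3 against 30.6 CPM, PERP at 68.8 against 47.8 CPM, and TNFAIP8 at 47.2 against 53.7 CPM. Members of the BCL2 family outside the target list were near the other cells, with 1 of 7 at least 1.5-fold higher (4.82% of all genes were) and a median ratio of 0.966. That gene was BCL2L1, which opposes death, at 66.5 against 44 CPM. BCL2 itself was at 44.7 against 62.5 CPM and MCL1 at 68.4 against 65.0 CPM.

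The third group of targets, of repair, metabolism and other roles, had 34 measured genes. At least 1.5-fold higher were 28 of these, where 4.82% of all genes were. Some, such as DRAM1, FDXR and MIR34AHG, were under 10 CPM in the other cells and passed the filter only through members. The filter on the other cells alone was not applied to this list by itself. RPS27L, a ribosomal protein paralogue, was the most abundant of them, with a median of 7.74 UMIs per 10000 in members (highest 27.1) against 1.79 and a pooled level of 796 against 229 CPM (3.48-fold, 3.37 to 3.60). ASCC3, a helicase used in repair, was at 582 against 130 CPM, with medians of 5.38 and 0.971 UMIs per 10000. The repair genes DDB2 and XPC, which recognize damaged bases, were at 140 against 31.7 and 109 against 53.7 CPM, the translesion polymerase POLH at 60.2 against 13 CPM, and RRM2B, which supplies deoxynucleotides outside S phase, at 78.3 against 17.6 CPM. DRAM1, an autophagy factor, was at 43.4 against 4.99 CPM, FDXR, a mitochondrial reductase, at 46.0 against 9.14 CPM, and TIGAR, which lowers glycolytic flux, at 96.5 against 29.4 CPM. Among noncoding targets, PURPL was detected in 179 members with a highest value of 18.1 UMIs per 10000, and MIR34AHG, the host transcript of the microRNA miR-34a, stood at 86.3 against 8.02 CPM (10.8-fold, 9.64 to 12.0). The mature microRNA was not measured by this assay. Its RefSeq sequence (chr1:9151735-9151756, minus strand, GRCh38.p14) is printed because its host was among the 15 genes with the highest ratio, with the seed in capitals.
hsa-miR-34a-5p: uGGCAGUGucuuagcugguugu
EFNB1, a ligand of Eph receptors, was at 71.6 against 78.1 CPM, and KITLG and PANK1 were each 1.15-fold.

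**Figure D2:**
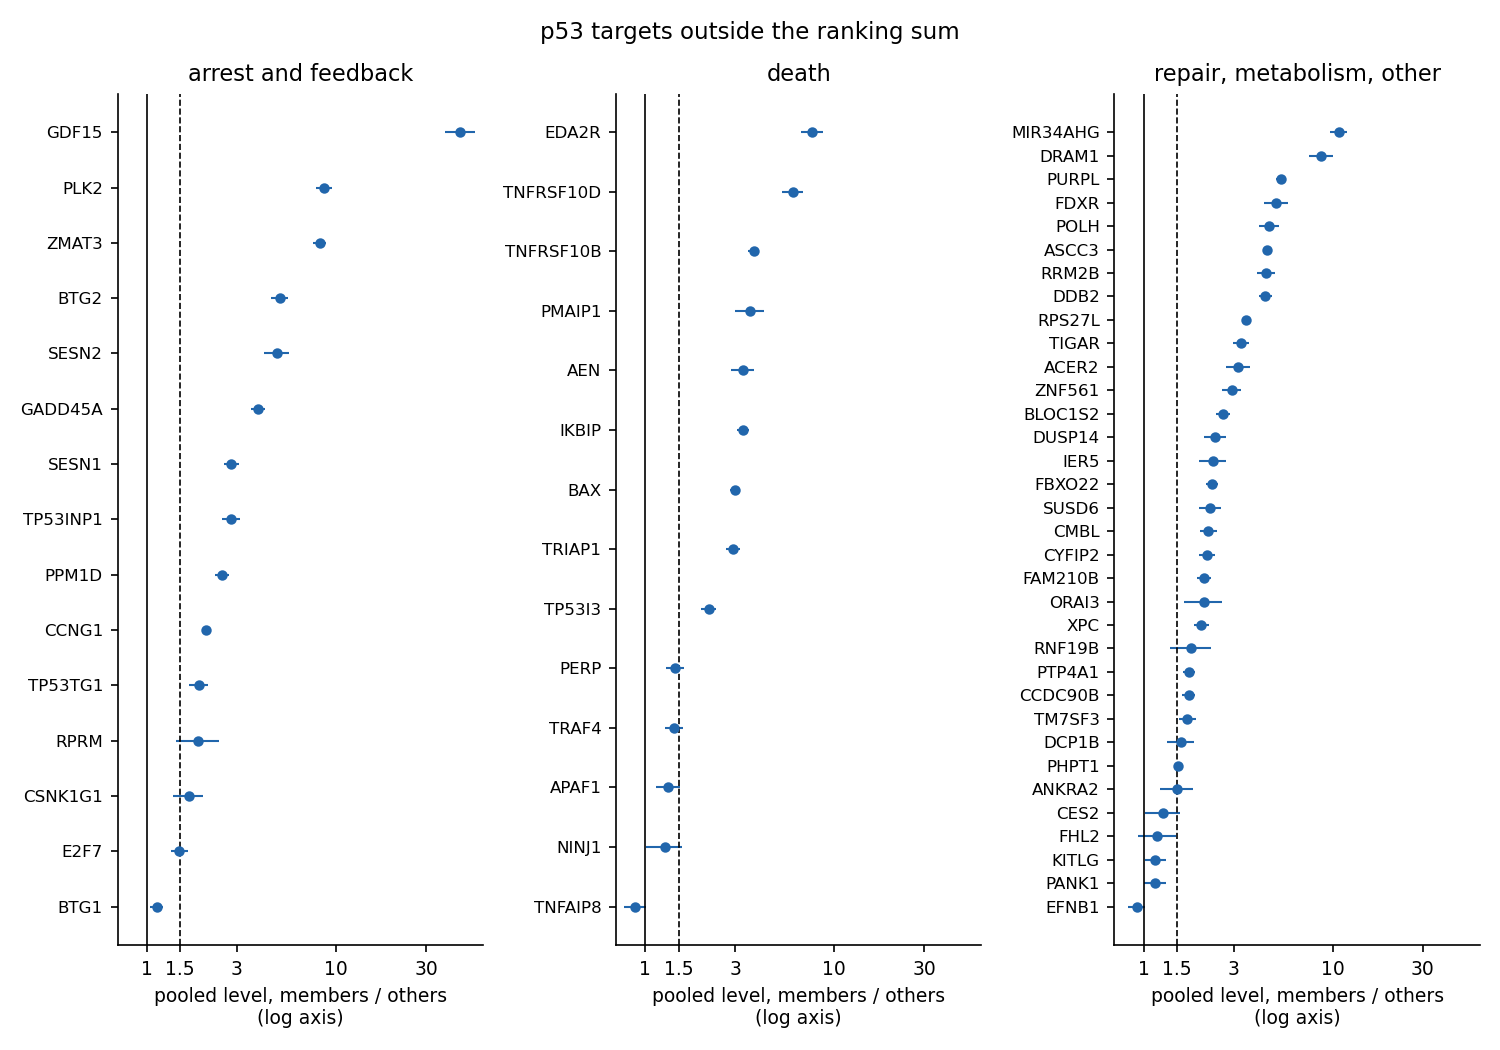
Ratio of the pooled level in 200 members to that in 12039 other kept cells for the 63 measured p53 targets outside the ranking sum, by role, on a log axis with 95% counting intervals; solid line 1, dashed line 1.5. GDF15 is highest at 45.3, and only TNFAIP8 and EFNB1 lie below 1.

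Outside the lists of p53 targets, RNA of proteins that switch p53 on or hold it back differed little. The negative regulators MDM2, PPM1D and CCNG1, which are themselves targets, were higher, as given above. MDM4, which holds p53 back, stood at 102 against 84.9 CPM, and the damage kinases ATM and ATR stood at 92.8 against 89.4 and 63.2 against 72.4 CPM. Of 12 measured genes of this circuit, 0 were 1.5-fold higher and 0 lower, where 4.82% and 2.91% of all genes were. In so short a list a count of 0 is near those shares. The median ratio of the 12 was 0.921. Other stress lists are described by their counts and median ratios. The unfolded protein list had 0 of 8 and the heat shock list 0 of 8 genes past 1.5-fold in either direction, with median ratios of 1.08 and 0.930. These counts, too, are near the shares over all genes. The integrated stress list had 3 of 10 genes at least 1.5-fold higher, where 4.82% of all genes were, and 2 of 9 with the filter set on the other cells alone, which DDIT3 did not pass. These were DDIT3 (16.8 against 5.76 CPM), ATF3 (31.3 against 16.9 CPM) and DDIT4 (40.9 against 21.7 CPM), each at low levels, while ATF4 was at 106 against 78.7 CPM. The nucleolar list had a median ratio of 0.807 with 0 of 10 past 1.5-fold, a count likewise near those shares. Ribosomal proteins had a median ratio of 0.970 with 0 of 82. In the list of genes associated with senescence, TIMP1 was higher at 60.4 against 36.3 CPM and IGFBP5 lower at 121 against 213 CPM. LMNB1, whose loss is a mark of senescence, was at 144 against 203 CPM. The summed G2/M list was lower as well, at a ratio of 0.75, and what the level of LMNB1 reflects was not tested. CDKN2A was at 0.420 CPM, or 2 UMIs over all members, and IL6 and CXCL8 had 0 UMIs in members, where 3 UMIs would be 0.630 CPM.

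Outside the lists, the genes with the highest ratios included noncoding RNAs. The 15 genes with the highest and the 15 with the lowest ratio were named by rule, among 7729 genes with a mean of the 2 group levels of at least 20 CPM. Of the 15 highest, 9 were long noncoding RNAs in GENCODE 44. Only NEAT1 among the 15 reached 20 CPM in the other cells. The rest passed the filter on levels only through the members, so that no share is set against all genes. AC010511.1 (19:28065267-28125430) had the highest ratio, 67.3 (55.0 to 82.4), at 49.5 against 0.736 CPM, and was detected in 68 members. LINC02334 (13:37934298-38066444) was at 102 against 3.84 CPM and was detected in 112 members, with a highest value of 8.68 UMIs per 10000. It had been among the leading genes of a cluster in an earlier analysis of these cells, so its rise is not independent. AC097478.1 was at 96.5 against 3.97 CPM, and where the counting ignored strand its reads cannot be told from those of a gene on the opposite strand. LINC01707 was at 46.4 against 2.27 CPM, AL139158.2 at 41.8 against 2.43 CPM, and AC015522.1 at 127 against 5.51 CPM. LINC01376 was at 147 against 16.8 CPM, but 20.3% of its member UMIs came from 1 member. NEAT1, the scaffold of nuclear paraspeckles, had a median of 1.72 and a highest value of 71.7 UMIs per 10000 in members, against a median of 0.199, and stood at 698 against 76.8 CPM (9.09-fold, 8.76 to 9.44). MALAT1, another nuclear RNA, was at 14120 against 9830 CPM, a ratio of 1.44. CDH8, a cadherin, was the one coding gene among the 15 that was not in a target list, at 121 against 19.3 CPM. The remaining 5 of the 15, GDF15, DRAM1, PLK2, ZMAT3 and EDA2R, were listed targets, as was MIR34AHG.

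**Figure D3:**
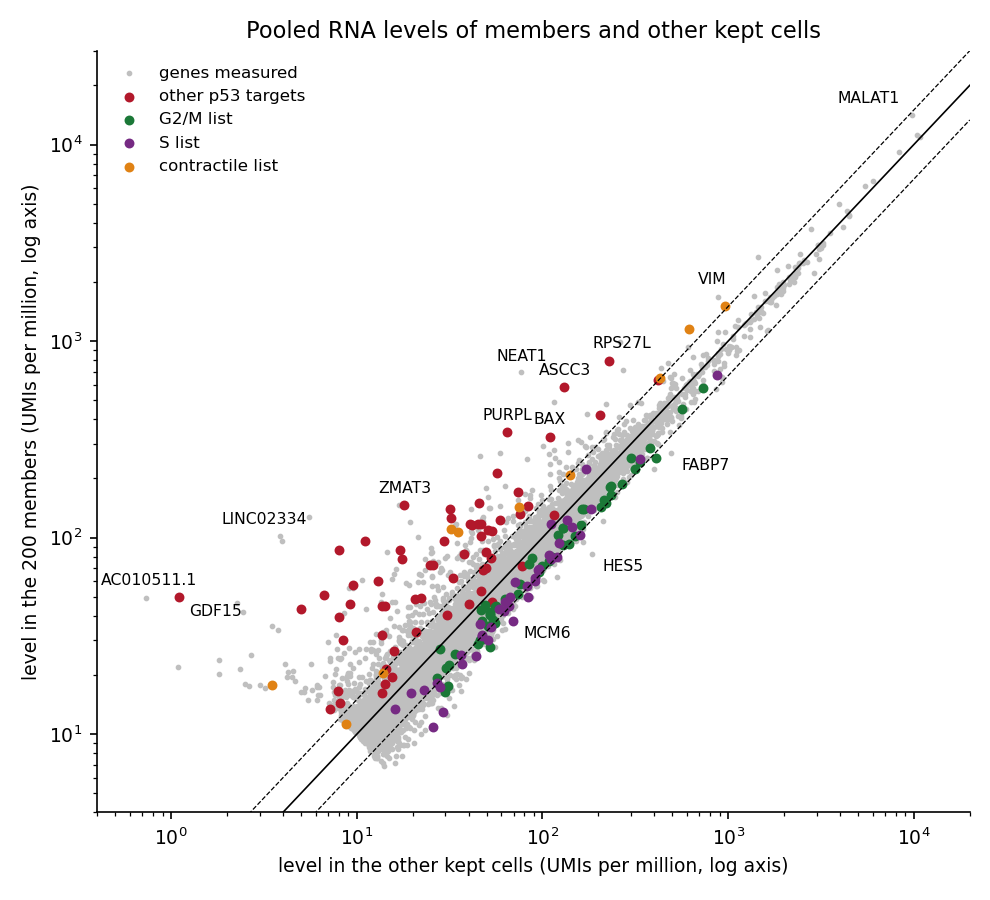
Pooled level of each of 10046 genes in the 200 members (vertical) against the other kept cells (horizontal), in CPM on log axes, with listed genes coloured; solid line equal levels, dashed lines 1.5-fold. Of the 63 p53 targets, 61 lie above the diagonal, as do NEAT1, LINC02334 and AC010511.1, and all 54 G2/M genes and 38 of 40 S genes lie below it.

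The 15 lowest ratios lay between 0.412 and 0.527, far closer to 1 than the highest. HES5, a Notch effector that holds progenitors undifferentiated, was at 82.3 against 184 CPM (0.447, 0.404 to 0.494). It was detected in 77 members (38.5%) and in 59.2% of the other cells. The noncoding AL139246.5, which overlaps HES5 on the opposite strand, was at 17.8 against 35.7 CPM, and where the counting ignored strand it may repeat the reads of HES5. CDCA7 and FAM111B, both expressed around S phase, were at 13 against 29 and 16.6 against 36.4 CPM. The neuronal gene STMN2 was at 13.6 against 28.3 CPM and was detected in 13% of members and 12.8% of the other cells. In the neuronal list 5 genes were measured, of which 1 was at least 1.5-fold higher and 1 lower. Among all genes 4.82% were higher and 2.91% lower. NR2F1, a patterning factor, was at 13.2 against 28.4 CPM, and MAP2K6, a kinase upstream of p38, at 62.8 against 119 CPM. KCNIP4 was at 12.6 against 30.6 CPM, with 25% of its member UMIs in 1 member. The other 7 of the 15 were ESRRG, SERTAD4, NXT1, RELL1, KIRREL3, MAPK4 and KIAA1549L, with ratios from 0.413 to 0.513.

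Markers of forebrain progenitors were present in members. SOX2, a factor of neural stem cells, had a median of 3.04 UMIs per 10000 in members and 4.0 in the other cells, and stood at 301 against 415 CPM. The forebrain factor gene SIX3 was at 297 against 329 CPM, PAX6 at 42.0 against 55.0 and the adhesion molecule CDH2 at 857 against 759 CPM. Of 15 measured progenitor markers, 10 had a ratio below 1, and the median ratio was 0.763. At least 1.5-fold lower were 3 of them, where 2.91% of all genes were. These were HES5, SOX1 (33.8 against 60.4 CPM) and FABP7, a radial glial lipid carrier, with a median of 2.17 UMIs per 10000 against 4.54 and a level of 268 against 491 CPM. Among 9 forebrain markers, 7 had a ratio below 1 and LHX2 alone was 1.5-fold lower, at 94.7 against 166 CPM. The intermediate filament gene VIM was the 1 progenitor marker of 15 that was 1.5-fold higher, where 4.82% of all genes were. It stood at 1686 against 884 CPM, while its medians per cell were closer, at 8.83 and 7.42 UMIs per 10000. POU5F1 and NANOG, which mark pluripotent cells, were at 0.210 and 0.420 CPM. SOX2 was detected in 195 of the 200 members, but the first-ranked member, with 82828 UMIs, had no UMI of SOX2, HES5 or FABP7 and held 72.1 UMIs of a contractile list per 10000.

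Contractile RNA was higher in members, although all kept cells had passed the limit on ANXA1, TFPI2 and CTGF. Of 10 measured genes of a contractile list, which was chosen with earlier results of these data known, 7 were at least 1.5-fold higher, where 4.82% of all genes were, or 6 of 8 with the filter set on the other cells alone. TAGLN was at 651 against 431 CPM, CALD1 at 1151 against 617, ACTA2 at 107 against 35.1 and S100A11 at 111 against 32.2 CPM. ACTA2 overlaps FAS on the opposite strand, so where the counting ignored strand its reads and those of FAS may be mixed. The summed list ranged from 2.48 to 209 UMIs per 10000 over members, with a median of 15.4 and an upper quartile of 45.1, against a median of 10.4 and an upper quartile of 17.3 in the other cells. The ACTG2 level was near 0 in both groups (1.47 and 1.40 CPM). Of the markers of crest and mesenchyme, COL1A2 (27.1 against 7.82 CPM) and PRRX1 (21.4 against 7.76 CPM) were higher, both measured only through their level in members, while SOX10, TWIST1, TFAP2A and PDGFRA were at 1.05 CPM or less in members.

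The members were therefore read apart by contractile RNA, a division made after the data were seen. Below 20 UMIs of the contractile list per 10000 lay 115 members (57.5%) and 9479 other cells (78.7%), and 85 members and 2560 other cells lay at or above it. The other p53 targets were higher in both: 7460 against 3048 CPM below (2.45-fold, 2.41 to 2.49) and 7703 against 3079 CPM above (2.50-fold, 2.47 to 2.54). GDF15 was 38.8-fold (29.0 to 51.5) and 38.0-fold (29.6 to 49.0), ZMAT3 8.31-fold and 8.18-fold, and BAX 2.93-fold and 2.71-fold. Other genes differed between the strata. VIM was at 707 against 706 CPM (1.00-fold, 0.953 to 1.05) below the limit and at 2543 against 1352 CPM (1.88-fold) above it. NEAT1 was 3.15-fold (2.84 to 3.49) below and 8.49-fold (8.14 to 8.85) above, LINC02334 16.8-fold and 31.1-fold, and XACT, a noncoding RNA known from the X chromosome of pluripotent cells, 2.09-fold and 3.06-fold. The lower level of HES5 held in both, at 0.630 (0.564 to 0.702) and 0.556 (0.420 to 0.723), as did that of FABP7 at 0.721 and 0.550. Below the limit, S100A11 was at 15.3 CPM in both groups and TAGLN at 30.6 against 44 CPM. CALD1 was 1.14-fold there, and ACTA2 was at 57.1 against 9.47 CPM (6.03-fold, 4.99 to 7.23). At or above the limit ACTA2 was 1.47-fold. These genes all belong to the list that made the division, and ACTA2 overlaps FAS, a gene of the rule.

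**Figure D4:**
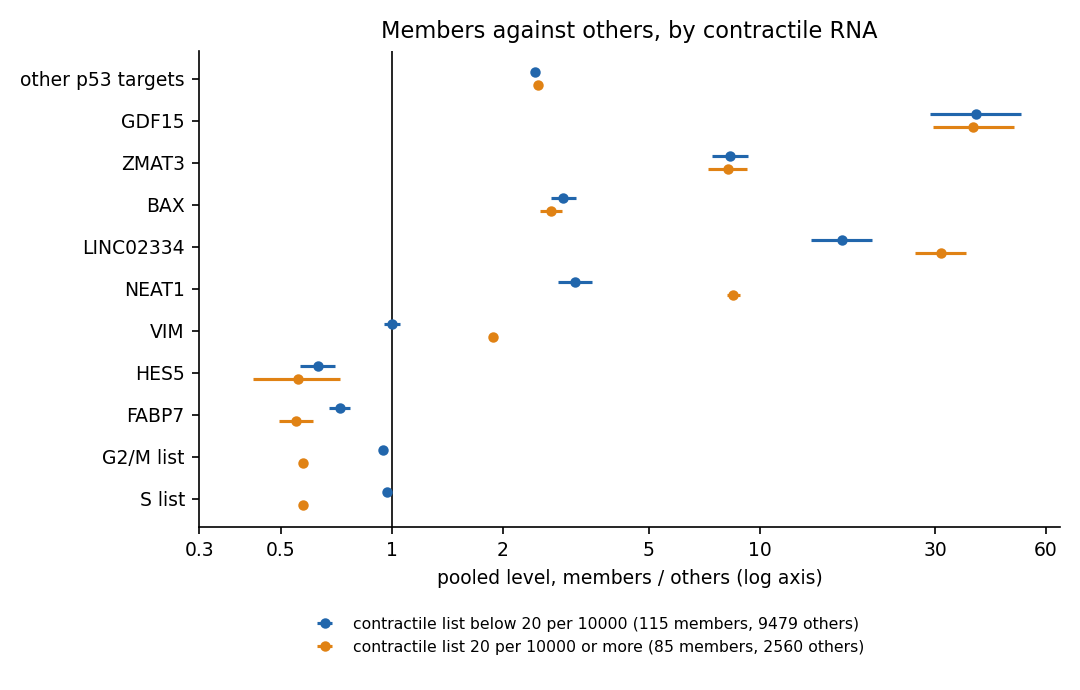
Ratio of pooled levels in members to those in other kept cells (log axis, 95% counting intervals) for cells below and at or above 20 contractile UMIs per 10000. The summed p53 targets sit at 2.45 below and 2.50 above the limit, GDF15 at 38.8 and 38.0, ZMAT3 at 8.31 and 8.18 and BAX at 2.93 and 2.71, whereas VIM and the G2/M and S lists sit near 1 below the limit and apart from 1 above it.

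RNA of the cell cycle was lower in members taken as a whole. All 54 genes of the G2/M list had a ratio below 1, 8 were at least 1.5-fold lower (2.91% of all genes were), and the summed level was 5784 against 7713 CPM (0.75, 0.741 to 0.759). The mitotic genes CDC20 and CDCA3 were at 27.9 against 52.2 and 16.4 against 29.7 CPM, the proliferation marker MKI67 at 156 against 215, topoisomerase TOP2A at 287 against 379, and CCNB1, the partner of CDK1, at 111 against 164 CPM. Of 40 measured S-phase genes, 12 were at least 1.5-fold lower, against the same 2.91%, 0 were higher, and the median ratio was 0.697. The replicative helicase subunits MCM5 and MCM6 were at 25 against 44 and 37.6 against 69.4 CPM, and WDR76 at 10.9 against 25.8 CPM. PCNA, itself raised by p53, and TYMS were the exceptions, at 117 against 111 and 224 against 171 CPM. Of cyclins and their kinases, CCND1 was at 253 against 185 CPM, CDK4 at 161 against 184 and CCNE1 at 12.2 against 19.9, the 1 gene of 13 past 1.5-fold. E2F1 was at 19.5 against 37.0 CPM. CDK inhibitors other than CDKN1A were not higher, with CDKN1B at 26.2 against 34.6 CPM and CDKN1C at 61.7 against 68.8 CPM.

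The lower cycle RNA of members was small below the contractile limit and larger above it. Below the limit the G2/M list was at 7290.3 CPM in members and 7690.2 in other cells (0.948, 0.933 to 0.963) and the S list at 0.973 (0.952 to 0.993), and MKI67 stood at 228 against 222 CPM. At or above the limit the G2/M list was at 4465 against 7773 CPM (0.574, 0.564 to 0.585) and the S list at 0.573 (0.558 to 0.588), with MKI67 at 93.3 against 197 CPM. MCM6 and CDCA7 were lower in both strata, at 0.727 and 0.585 below and 0.377 and 0.331 above. In the other cells the G2/M list was at 7690.2 CPM below and 7773 CPM at or above the limit. Among the members taken in rank order by 50, the group with the highest pooled contractile level (5251 CPM) had the lowest share of G1 calls (38.0%). A pooled level weighs deep cells more than a share of cells does. Counted by cell, 65.9% of members at or above the limit and 40.9% of those below it were called G1. The part of contractile RNA in the cycle result was not tested.

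Phase calls gave the same order. By scores of the S and G2/M lists, 103 of 200 members (51.5%, 44.3 to 58.6%) were called G1, 50 S and 47 G2/M, against 25.4%, 42.6% and 32.0% of the other cells. After every cell was thinned to 5000 UMIs, which left out 2 members and 12 other cells, 52.0% of members and 26.8% of other cells were called G1. Below the contractile limit 40.9% of members (31.8 to 50.4%) and 26.1% of other cells were called G1, and at or above it 65.9% (54.8 to 75.8%) and 22.8%. A call of G1 means low scores for both lists and says nothing by itself of arrest. The other p53 targets were higher in members of each phase, at 2.70-fold (2.66 to 2.74) in G1, 2.03-fold (1.98 to 2.08) in S and 2.52-fold (2.47 to 2.57) in G2/M. The G2/M list itself was at 11191 CPM in members and 13224 CPM in the others within G2/M, and at 1871 and 2235 CPM within G1. Within S cells the direction turned, with 6600 CPM in members and 4911 CPM in the others.

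The short motif TTTGAA, which reads TTCAAA on the other strand, is found along with TTCGAA in the cell-cycle homology region of mitotic genes, and both were searched in the same windows on both strands. One or the other lay in 35 of 45 matched G2/M genes (77.8%), in 5 of 32 matched S genes (15.6%), in 12 of 69 matched p53 targets (17.4%) and in 5336 of 27305 genes in all (19.5%). The 150 bases before the starts of MKI67 (chr10:128126424-128126573, minus strand) and CCNB2 (chr15:59104996-59105145, plus strand) are printed with this motif in capitals, since both genes were lower in members and CCNB2 stood at 71.8 against 99.9 CPM.
MKI67: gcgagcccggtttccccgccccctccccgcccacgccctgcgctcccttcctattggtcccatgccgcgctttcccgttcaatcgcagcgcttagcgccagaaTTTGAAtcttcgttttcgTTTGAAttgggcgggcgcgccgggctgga
CCNB2: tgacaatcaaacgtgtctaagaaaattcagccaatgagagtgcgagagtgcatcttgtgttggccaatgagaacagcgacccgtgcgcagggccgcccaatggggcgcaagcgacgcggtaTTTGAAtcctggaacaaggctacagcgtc
Such a match is a description of these letters and not a measured binding site.

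Members differed among themselves along the ranking. The 82 other targets stood at 8982 CPM in the first 50 members, 7976.5 in the next 50, 6646 in the next and 6714 in the last 50. They were still at 5503 CPM in the 200 cells ranked after the members, 4289 in the following 600 and 3335 in the 2000 after those, against 2849 in the remaining 9239. The next 200 cells were thus well above the bulk, and 131 of them (65.5%) reached the 95th percentile of the cells outside the members. GDF15 fell more steeply, from 71.7 CPM in the first 50 members to 24.0 in the last 50, 13.8 in the next 200 cells and 0.363 in the remaining 9239. BAX stood at 355, 300, 244 and 96.0 CPM in the same cells.

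The 50 highest members stood apart from the other 150 in more than p53 targets. They were called G1 in 37 cells (74.0%, 59.7 to 85.4%), and the G2/M list was at 4225 against 6367 CPM (0.664, 0.644 to 0.684). FABP7 was at 120 against 324 CPM (0.372, 0.312 to 0.440), HES5 at 38.6 against 98.6 CPM, VIM at 2494 against 1383 CPM (1.80-fold) and NEAT1 at 1108 against 546 CPM (2.03-fold). The summed contractile list was alike, at 3988 against 3943 CPM. The other targets differed less, at 1.27-fold (1.24 to 1.30). MDM2 and CDKN1A, at 624 against 185 and 221 against 93.7 CPM, had themselves set this order.

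Members with and without CDKN1A also differed. The 152 members with a CDKN1A UMI were deeper (median 23840 UMIs) than the 48 without (15328 UMIs), so that detection moved with depth. GDF15 was at 56.3 against 17.4 CPM (3.23-fold, 1.89 to 6.01) and NEAT1 at 805 against 175 CPM (4.58-fold, 3.87 to 5.47), whereas PTCHD4 was at 532 against 539 CPM and the other targets at 7846 against 6323.5 CPM (1.24-fold). HES5 was at 73.5 against 126 CPM and VIM at 1836 against 945 CPM. The G2/M list was at 5928 against 5075 CPM, higher in members with CDKN1A.

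**Figure D5:**
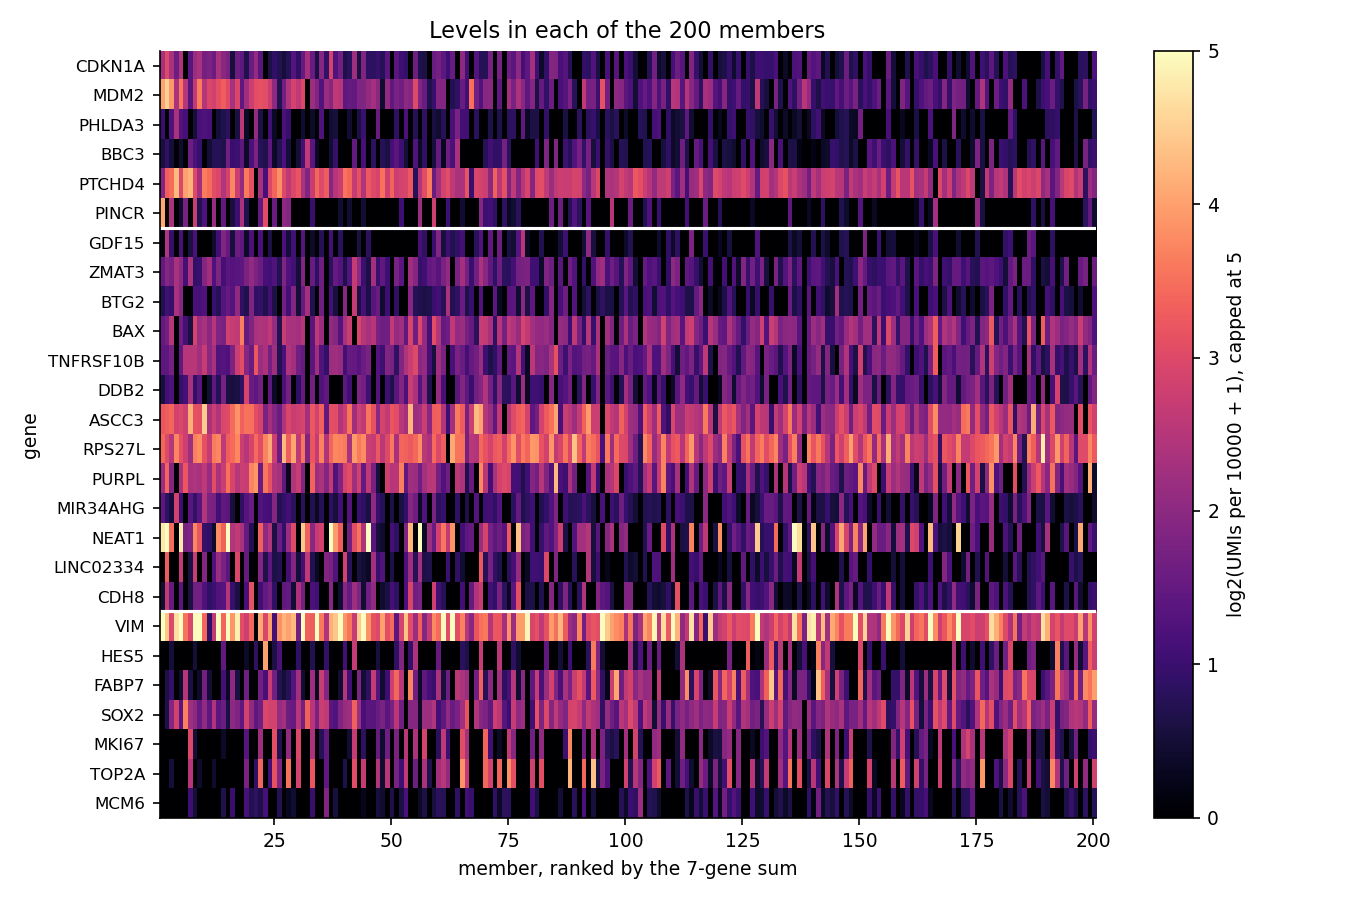
Each column is 1 of the 200 members in rank order and each row a gene, with log2(UMIs per 10000 + 1) as colour, capped at 5; white lines part 6 genes of the ranking sum, 13 genes higher in members, and progenitor and cycle genes. PTCHD4, ASCC3 and RPS27L are present in nearly all members, whereas PINCR, NEAT1, HES5 and the cycle genes vary from cell to cell.

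The share of measured genes at least 1.5-fold higher ran from 1.44% on chromosome 22 to 7.14% on chromosome 8. The median ratio of the genes measured on each of 23 chromosomes lay between 0.923 and 0.980. Such pooled medians would not show a difference carried by few genes or by few members. Doublets were not removed, because the automatic threshold of Scrublet marked 1 barcode. Of the 1178 barcodes (8%) with the highest doublet scores, 8 were members (4.0% of members), against 7.91% of the other kept cells. The share of cells with a UMI that free RNA gives could not be measured for p53 targets, as no cell type of this library should lack them, and pooled levels are given beside such shares.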

How the data were processed

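Single-cell 3' RNA-seq (10x Chromium HT v3.1) of 1 library was analysed. The authors deposited raw UMI counts per gene and barcode, made with Cell Ranger 7.0.1 on GRCh38, with no normalization (Seurat 4.4.0 is also named in the submitters' processing notes). The methods state default parameters for Cell Ranger and do not name a strand setting. Kept cells had 2000 to 10000 genes, 1% to under 10% mitochondrial UMIs and under 5 UMIs of ANXA1, TFPI2 and CTGF per 10000, and 12239 of 14726 barcodes (83.1%) passed. The 33538 listed genes held 327640709 UMIs, 502 to 204741 per barcode. Levels are summed counts in CPM with exact Poisson intervals, ratios have exact conditional intervals, and shares have Clopper-Pearson intervals. A gene was measured at a mean of both group levels of at least 10 CPM and called past 1.5-fold. Named genes were the 7 of the rule, the gene lists, and the 15 highest and 15 lowest ratios at 20 CPM or more. The members and lists were chosen with earlier results of these data known. LNCTAM34A, DYNC2H1, MCC and XACT were named after their values were seen. Phases used scanpy 1.11.5 with 43 S and 54 G2/M genes. Scripts ran in Python 3.11.15 (numpy 2.4.6, scipy 1.17.1) and were tested on simulated data. Alternatives changed the ranking, depth, cell filters and number of members. Promoter and microRNA sequences came from RefSeq (GRCh38.p14), where PHLDA3 and PINCR had no entry, and gene spans from GENCODE 44. Some listed genes are not reported here.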

Additional observations from a re-analysis of the deposited data

Results flagged for a closer look

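Barcodes that the limits left out held cells at or above the lowest member more often than the kept cells did, of which the members are 1.63%. The share was 11.7% (10.1 to 13.4%, 175 of 1497) of barcodes at or above the limit on ANXA1, TFPI2 and CTGF that met the other limits. It was 14% (73 of 520) under the lower limit on genes, 28.7% (27 of 94) over the upper limit, 9.77% (42 of 430) at 10% or more mitochondrial UMIs and 12.1% (39 of 322) under 1%. These barcodes differed in depth, with a median of 1552.5 UMIs under the lower gene limit and 103907 over the upper one, so that a sum per 10000 rests on few UMIs in the first. They were picked out because they hold the signal outside the comparison.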

How the results depend on the processing

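The 15 genes with the highest ratios stayed at least 1.5-fold higher under every alternative tried. The 15 lowest stayed below 1 in all of them except STMN2, which was 2.41 without the limit on ANXA1, TFPI2 and CTGF. Both sets were picked by their ratios in these same data, and most alternatives reused many of the same cells. Their stability is therefore a description and not a test. Of the 50 targets called higher, 45 to 50 stayed so. The summed ratio of the other targets was 2.28 after ranking on thinned counts, 2.76 for 100 and 2.19 for 400 members, 2.51 with thinned levels, 2.43 at 10000 to 25000 UMIs, 2.70 in G1 cells, 2.45 with low contractile RNA (added after seeing the data) and 2.40 to 2.47 when 1 gene was left out of the sum. The cycle result depended on the cells. The G2/M ratio was 0.717 for 100 and 0.791 for 400 members, 0.786 as a mean over cells, 0.797 with thinned levels, 0.724 at 10000 to 25000 UMIs, 0.837 in G1 cells, 0.537 without the ANXA1, TFPI2 and CTGF limit, 0.733 without high doublet scores, 0.948 with low contractile RNA, and 0.718 to 0.853 when 1 gene was left out, highest without PTCHD4. The share called G1 was 64.0% for 100 and 44.25% for 400 members, 67.0% without that limit and 40.9% with low contractile RNA. Genes called higher numbered 776 in G1 cells, 972 without the limit and 320 with low contractile RNA, with 450 to 511 when 1 gene was left out. Genes called lower numbered 467 and 157 at minimums of 5 and 20 CPM, 157 on thinned ranking, 742 and 76 for 100 and 400 members, 571 with thinned levels, 734 in G1 cells, 1561 without the limit and 138 with low contractile RNA, with 239 to 325 when 1 gene was left out. With the filter set on the other cells alone (added after seeing the data), 367 genes were called higher and 348 lower. Thinned and G1 readings hold fewer UMIs by construction, ranking on thinned counts kept 133 of the members and dropping the limit kept 98, and the causes were not tested. These directions turned: CDH18 to 0.586 and RPRM to 0.997 at 10000 to 25000 UMIs, E2F2 to 1.10 with thinned levels and 1.08 in G1 cells, TACC3 to 1.95 in G1 cells, and with low contractile RNA CDH18 to 0.487, E2F2 to 1.08, GAP43 to 0.637, RPRM to 0.797, S100A11 to 0.999, TAGLN to 0.694 and TPM1 to 0.911. Those now below 1 had been above it in the main reading, and the reverse. CDH18 is 1 of 4 listed markers of the cluster that the paper calls NPC-3. In the main reading 2 of the 4 were measured, and both were at least 1.5-fold higher, where 4.82% of all genes were. No paired analysis was possible because there is 1 library. Depth limits genes near 10 CPM, where 1 UMI in members is 0.210 CPM, and intervals of levels and ratios cover counting error only.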
